A study of Mus musculus with 16 samples.

Results

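The genes described here are 10 genes of the cellular oxygen sensing pathway and its vascular branch: Hif1an, Hif1a, Egln1, Egln3, Vhl, Vegfa, Flt1, Bnip3, Pdk1 and Ankrd37. They were picked by name, as genes of the hypoxia pathway, out of 48397 gene symbols counted in every library. Their behaviour over the groups was already known when they were picked, so their group differences are given below as a description of these libraries. All 10 were found in the count tables, and all 10 were among the 17038 genes that passed the filter on low counts.

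Cells read the oxygen supply through hydroxylases that use oxygen as a substrate. Prolyl hydroxylases of the Egln family mark the hypoxia-inducible factor (HIF) alpha subunit for capture by the VHL protein and destruction, and the asparaginyl hydroxylase encoded by Hif1an, also called factor inhibiting HIF, blocks the contact of the same subunit with its coactivators. When oxygen is short both marks fade and HIF switches on genes for glycolysis, mitochondrial turnover and vessel growth, among them Vegfa. Since the hydroxylases act on the HIF protein, the RNA level of Hif1a is not a reading of HIF activity, and well-known targets such as Pdk1, Bnip3 and Egln3 are the usual RNA readout.

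The libraries came from primary hippocampal neurons of wild type CD1 mice, cultured from P0-P2 pups and treated with cytosine arabinoside on the third day against the growth of other cells. Neurons received 10-fold concentrated conditioned medium at 10 and 13 days in vitro (DIV), and RNA was taken at 17 DIV. The medium came from immortalized astrocytes homozygous for human APOE ε2, ε3 or ε4, which secrete apoE2, apoE3 or apoE4 lipoproteins, or from immortalized Apoe-/- astrocytes for the control neurons. The control is therefore medium of astrocytes without apoE and not the absence of astrocyte medium, and each source is an immortalized line, so the apoE isoform and the line that made it cannot be told apart. Each of the 4 groups held 4 libraries, numbered 1 to 4 in the labels.

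Total gene counts ran from 14087723 to 34248172 per library, with a median of 22221832. Between 38.4% and 73.7% of counted reads were assigned to no gene. Replicate 4 of the apoE2 group and replicate 2 of the apoE4 group stood apart, with 38.4% and 38.6% unassigned. The neuronal markers Map2, Snap25 and Slc17a7 were high in all libraries, with medians of 2066, 1036 and 878 CPM (counts of a gene relative to the library's total, per 1e6 reads, after TMM scaling), and astrocyte markers were also plainly present. In a pooled culture, a gene's level per library cannot separate fewer cells of a type from less RNA in each cell.

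Per length of exon, Bnip3 had the highest level of the 10 genes, at 37.8 ± 18.5 CPM per kb (SD over 16 libraries). Hif1a followed at 21.6 ± 4.19, Vhl at 18.4 ± 1.92, Egln1 at 14.5 ± 2.06, Vegfa at 9.83 ± 3.40, Pdk1 at 8.60 ± 3.96 and Hif1an at 5.61 ± 1.59 CPM per kb. Egln3 at 1.86 ± 0.771 and Ankrd37 at 1.52 ± 0.645 CPM per kb were low, and Flt1 was close to absent at 0.0926 ± 0.0490 CPM per kb. Egln3 exceeded Ankrd37 in 9 of 16 libraries, Vegfa exceeded Pdk1 in 12 of 16 and Pdk1 exceeded Hif1an in 13 of 16. These neighbours, like Bnip3 with Hif1a (12 of 16) and Hif1a with Vhl (13 of 16), did not differ beyond their spread.

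**Figure D1:**
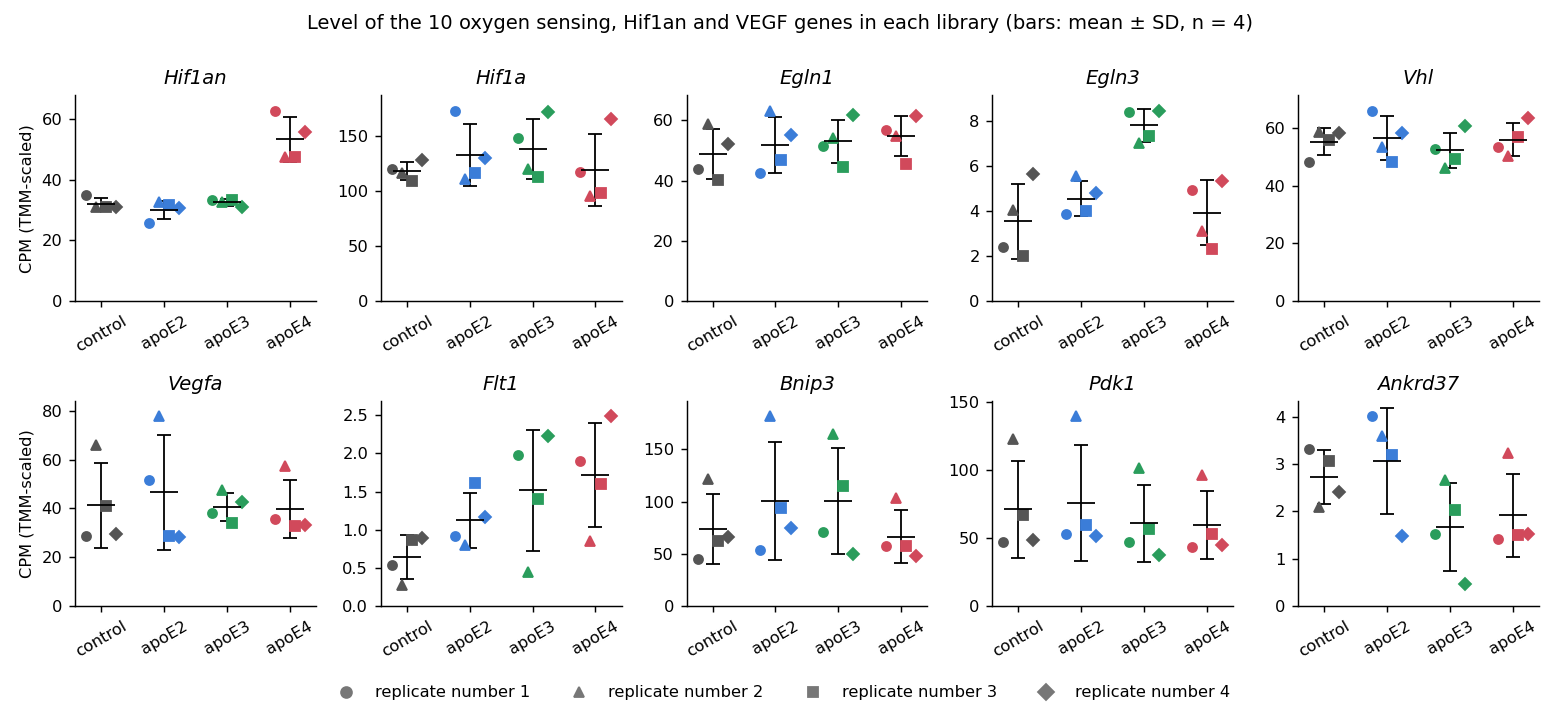
Level of each of the 10 genes in every library, in CPM on a linear axis from 0, by group. Colours mark groups, marker shapes mark the replicate number, and black bars give the mean ± SD (n = 4). The 4 apoE4 values of Hif1an lie above all 12 others, whereas Bnip3 and Pdk1 are highest in the library numbered 2 of each group.

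Hif1an was higher in apoE4 treated neurons than in every other group. The gene lies on chromosome 19 from 44562850 to 44576274 on the plus strand (mm10), with no exon of another gene over its own, and its longest annotated 3′UTR has 5116 bases. Only 4.66% of the 13977 tested genes with a 3′UTR have a longer one, the median being 1391 bases. In control neurons its level was 35.0, 31.1, 31.0 and 31.0 CPM in replicates 1 to 4. Neurons given apoE2 had 25.9, 32.6, 31.7 and 30.6 CPM, and those given apoE3 had 33.5, 32.7, 33.5 and 31.0 CPM. The apoE4 treated neurons had 62.9, 47.4, 47.6 and 55.9 CPM, or 53.5 ± 7.43 against 32.0 ± 1.98 CPM in the control neurons (SD, n = 4). The apoE4 values did not overlap with those of any other group, and the lowest of them exceeded the highest value elsewhere.

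Compared to the control neurons this was a log2 fold change of 0.74 (SE 0.10, adjusted p = 0.00754 in edgeR's quasi-likelihood test over all 17038 genes, rank 9 by p). The direct comparisons with the other isoforms gave 0.71 (SE 0.10, adjusted p = 0.0120) against apoE3 and 0.82 (SE 0.10, adjusted p = 0.00335) against apoE2. Between libraries of the same number, apoE4 exceeded the control 1.53- to 1.81-fold. In the same fit 0.194% of all genes were called for apoE4 against control, 0.147% for apoE4 against apoE3 and 0.252% for apoE4 against apoE2, and Hif1an was the 1 member called in each. Neither apoE2 (log2 fold change -0.08, SE 0.10) nor apoE3 (0.03, SE 0.10) passed the test against the control, and no member was called there, where 0% and 0.00587% of genes were called. For apoE3 against apoE2 no member was called either, against 0% of all genes. At an unadjusted p under 0.05 edgeR gave 0 of the 10 members for apoE2 against control, 2 for apoE3 against control and 1 for apoE3 against apoE2, beside 2.79%, 6.43% and 2.28% of all genes, and DESeq2 called no member in these 3 comparisons.

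The Hif1an difference kept its sign in all 39 alternative fits for each apoE4 comparison. In the blocked edgeR fit it was called in all 16 fits that each left out 1 library, in each of the 3 comparisons. The adjusted p depended on the fit. With only the 2 groups compared in the fit it was 0.136 against the control, 0.337 against apoE3 and 0.171 against apoE2. Without the 4 libraries numbered 2 and without the block, an alternative added after the values were seen, it was 0.0739 against the control (log2 fold change 0.76), 0.0857 against apoE3 (0.76) and 0.0235 against apoE2 (0.91). Against apoE3 it rose to 0.0759 without apoE3 replicate 1, just past the threshold without apoE3 replicate 2, 0.0527 without apoE3 replicate 4 and 0.0552 without apoE4 replicate 4. Without apoE4 replicate 2, one of the libraries that stood apart, it was 0.00443 against the control and 0.00845 against apoE3.

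None of the other regulators of HIF hydroxylation and capture passed the test without the block in any comparison, and Egln3 passed it only with the replicate block. Hif1a, which encodes the oxygen-labile HIF subunit, ranged from 96.0 to 173 CPM, with overlapping groups at 119 ± 8.13 CPM in control, 133 ± 28.2 in apoE2, 138 ± 27.2 in apoE3 and 119 ± 32.5 in apoE4 treated neurons. Egln1, the main prolyl hydroxylase, ranged from 40.1 to 63.2 CPM, and Vhl, the substrate receptor of the ubiquitin ligase, from 46.2 to 66.1 CPM. The log2 differences of these 3 genes from the control lay between -0.08 (Vhl, apoE3) and 0.22 (Hif1a, apoE3). Exons of the predicted genes Gm15283 and Gm49321 overlap 5.60% and 2.51% of the Hif1a exon bases, the first on the opposite strand.

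Egln3, a prolyl hydroxylase that is itself a HIF target, was highest in apoE3 treated neurons. Control libraries had 2.41, 4.07, 2.02 and 5.66 CPM and apoE2 libraries 3.88, 5.54, 4.02 and 4.78 CPM. The apoE3 libraries had 8.38, 7.01, 7.35 and 8.46 CPM, and the apoE4 libraries 4.95, 3.11, 2.32 and 5.34 CPM. The apoE3 values stood above all 12 others. The log2 fold change against the control was 1.14 (SE 0.32) with an adjusted p of 0.518, so the gene was not called among all genes. With the replicate number as a block the value was 1.22 (SE 0.24, adjusted p = 0.00521) in edgeR. With the block, apoE4 was lower than apoE3 by a log2 fold change of -1.05 (SE 0.24, adjusted p = 0.0367). Without the 4 libraries numbered 2, left out after the values were seen, the blocked adjusted p was 0.0118 for apoE3 against control and 0.0991 for apoE4 against apoE3. When single libraries were left out of the blocked edgeR fit, the apoE3 call against the control was kept in all 16 fits. The call against apoE3 was lost without apoE3 replicate 1 or 3 or apoE4 replicate 2, 3 or 4, with adjusted p from 0.0687 to 0.161.

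The block raised the number of calls among all genes as well as among the members. It called 1.73% of genes for apoE2 against control, 11.7% for apoE3 against control and 3.3% for apoE4 against control. Between isoforms it called 1.76% for apoE4 against apoE3, 4.44% for apoE4 against apoE2 and 1.31% for apoE3 against apoE2. Among the 10 members it called none for apoE2 against control, Egln3 and Flt1 for apoE3 against control, Hif1an and Flt1 for apoE4 against control, Hif1an and Egln3 for apoE4 against apoE3, Hif1an for apoE4 against apoE2, and none for apoE3 against apoE2. The Hif1an adjusted p with the block was 0.000702 against the control, 0.00229 against apoE3 and 0.000288 against apoE2.

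**Figure D2:**
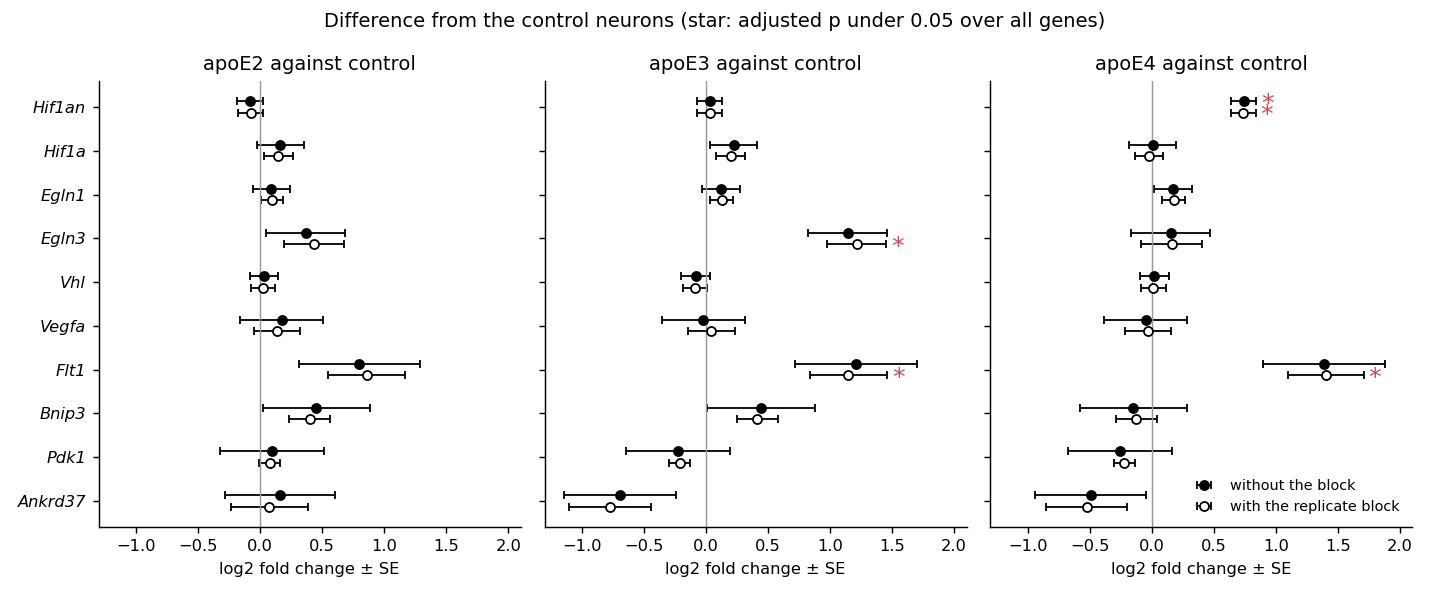
Log2 fold change ± SE of the 10 genes against the control neurons, without (filled) and with (open) the block on replicate number in edgeR. Red stars mark an adjusted p under 0.05 over all genes. Hif1an stands at 0.74 in both fits for apoE4, and the open symbols of Egln3 and Flt1 carry stars that the filled ones lack.

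Among the vascular genes, Vegfa, the main vessel growth factor, passed the test in no comparison, and the low level of Flt1, its decoy-like receptor, was higher after apoE3 and apoE4 in the blocked fit only. Vegfa was at 28.6, 65.8, 40.9 and 29.7 CPM in control, 51.7, 77.9, 28.9 and 28.2 CPM in apoE2, 38.2, 47.6, 34.2 and 42.8 CPM in apoE3 and 35.8, 57.5, 32.9 and 33.2 CPM in apoE4 libraries. Its log2 fold changes against the control were 0.18, -0.02 and -0.05 for apoE2, apoE3 and apoE4 (SE 0.33 each). Their signs turned when 1 library was left out of the fit without the block. They then ran from -0.211 to 0.495 for apoE2, -0.176 to 0.299 for apoE3 and -0.282 to 0.270 for apoE4. The library numbered 2 held the highest Vegfa value of every group.

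Flt1 rested on 427 reads in all 16 libraries together, between 7 and 49 in each. Its level was 0.546, 0.282, 0.873 and 0.890 CPM in control, 0.916, 0.802, 1.61 and 1.17 CPM in apoE2, 1.98, 0.451, 1.41 and 2.23 CPM in apoE3 and 1.90, 0.855, 1.61 and 2.49 CPM in apoE4 libraries. Each isoform exceeded the control in 4 of 4 libraries of the same number, while the groups overlapped. The log2 fold change against the control was 1.21 (SE 0.49, adjusted p = 0.757) for apoE3 and 1.39 (SE 0.49, adjusted p = 0.970) for apoE4 in edgeR without the block. With the block these became 1.15 (SE 0.31, adjusted p = 0.0281) and 1.40 (SE 0.31, adjusted p = 0.0190). In the blocked edgeR fit without the 4 libraries numbered 2 the adjusted p was 0.0349 for apoE3 and 0.0559 for apoE4. When single libraries were left out, the apoE3 call was lost without control replicate 1, 2 or 4 or apoE3 replicate 1 or 4. The apoE4 call was then lost without control replicate 1 or 4 or apoE4 replicate 1 or 4. Adjusted p rose up to 0.115 in these blocked edgeR fits.

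The study's own criterion of a 2-fold or larger change at an unadjusted p under 0.05 was applied with edgeR's p in place of the study's own per-gene test. It was met by Egln3 and Flt1 for apoE3 against control and by Flt1 for apoE4 against control. No member met it for apoE2. It was met by 0.722%, 1.96% and 1.15% of all genes for apoE2, apoE3 and apoE4. Hif1an, with a fold change below 2, did not meet it. For apoE3 the count of 2 members fell to 0 without control replicate 1 and to 1 without control replicate 2, control replicate 3, apoE3 replicate 1 or apoE3 replicate 4.

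Markers of other cell types were measured beside these low-level genes. Of 12 endothelial markers, which stand beside Flt1 because endothelial cells are its best-known source, Cdh5, Cldn5 and Tie1 had medians of 0.125, 0.147 and 0.0905 CPM, and the summed level of the list was 13.6 to 17.1 CPM in control, 12.4 to 17.8 in apoE2, 13.1 to 17.5 in apoE3 and 14.6 to 19.2 in apoE4 libraries. Most of that sum was Egfl7, with a median of 11.4 CPM. Of the 12 endothelial markers only 7 passed the low-count filter and were tested, and none of these was called in any comparison. The 10 astrocyte markers summed to 1315 to 2785 CPM in control, 1183 to 2693 in apoE2, 1567 to 5667 in apoE3 and 1464 to 4744 in apoE4 libraries. The paper counted GFAP-labelled astrocytes at 17 DIV and found no significant difference in their share of cells across treatments. The blocked fit called 8 of 10 markers higher for apoE3 and 4 of 10 for apoE4 against control, beside 11.7% and 3.3% of all genes in either direction. The 12 pericyte and fibroblast markers, 10 of them tested, summed to 28.5 to 244 CPM in control, 29.5 to 207 in apoE2, 31.3 to 483 in apoE3 and 30.4 to 410 in apoE4 libraries, and 2 of them, Col1a2 and Cspg4, were called higher for apoE3 and for apoE4 against control in that fit. The 10 proliferating cell markers summed to 10.9 to 26.3 CPM in control, 27.0 to 35.1 in apoE2, 35.2 to 50.1 in apoE3 and 20.9 to 54.0 in apoE4 libraries, so that the apoE2 and apoE3 libraries lay above all control libraries, as Egln3 did in apoE3 libraries. Of these markers the blocked fit called Top2a higher for apoE2 and apoE3 and Cenpf higher for apoE4 against control. Of 8 oligodendrocyte lineage markers 3 were called higher for apoE3 against control, and no microglia marker was called in any comparison. The part of these cells in the Egln3 and Flt1 differences was not tested.

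Of the remaining HIF targets among the members, Bnip3 and Pdk1 varied mainly with the replicate number. Bnip3, a mitophagy receptor, was at 44.9, 122, 62.4 and 66.7 CPM in control, 53.9, 182, 93.7 and 74.6 CPM in apoE2, 71.4, 165, 115 and 50.4 CPM in apoE3 and 57.3, 104, 57.7 and 47.7 CPM in apoE4 libraries. Pdk1, a kinase that inhibits pyruvate dehydrogenase, was at 46.8, 123, 66.7 and 48.3 CPM in control and 53.3, 140, 59.7 and 51.4 CPM in apoE2 libraries. Its values were 47.2, 101, 56.9 and 38.0 CPM in apoE3 and 43.3, 96.5, 53.4 and 45.0 CPM in apoE4 libraries. In both genes the library numbered 2 was the highest of each of the 4 groups. Ankrd37, an ankyrin repeat gene used as a hypoxia marker, was low, at 0.459 to 4.02 CPM and 887 reads in all. None of the 3 was called in any of the 6 comparisons with all 16 libraries, with or without the block. The nearest was Pdk1 for apoE4 against apoE2, with a log2 fold change of -0.30 (SE 0.08, adjusted p = 0.0567 in edgeR with the block). It was called in that fit without apoE2 replicate 3 (-0.36, adjusted p = 0.0328) or apoE3 replicate 4 (-0.30, adjusted p = 0.0386). Without apoE3 replicate 4 the blocked fit also called Bnip3 higher for apoE3 than for control (0.59, adjusted p = 0.0283) and lower for apoE4 than for apoE3 (-0.71) and apoE2 (-0.52). Without control replicate 2 it called Ankrd37 lower for apoE3 than for control (-1.09, adjusted p = 0.0389). Of the exon bases, 22.3% in Bnip3 and 26.4% in Ankrd37 overlap genes on the opposite strand, and whether the counting used strand is not given in the sources used here.

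The split of each gene's variation shows this contrast. Of the sum of squares of log2 CPM over the 16 libraries, 89.0% lay between groups for Hif1an and 0.711% between replicate numbers. For Pdk1 the order was opposite, with 5.52% between groups and 92.0% between numbers. Bnip3 had 73.0%, Vegfa 67.7%, Egln1 65.9%, Hif1a 56.3% and Flt1 46.3% between numbers, beside a median of 56.1% over all genes tested. In edgeR's F test of the replicate number 6 of the 10 members were called (Pdk1, Bnip3, Vegfa, Egln1, Flt1 and Hif1a), against 63.8% of all genes, a share close to that of the members. The labels do not say what the number stands for.

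**Figure D3:**
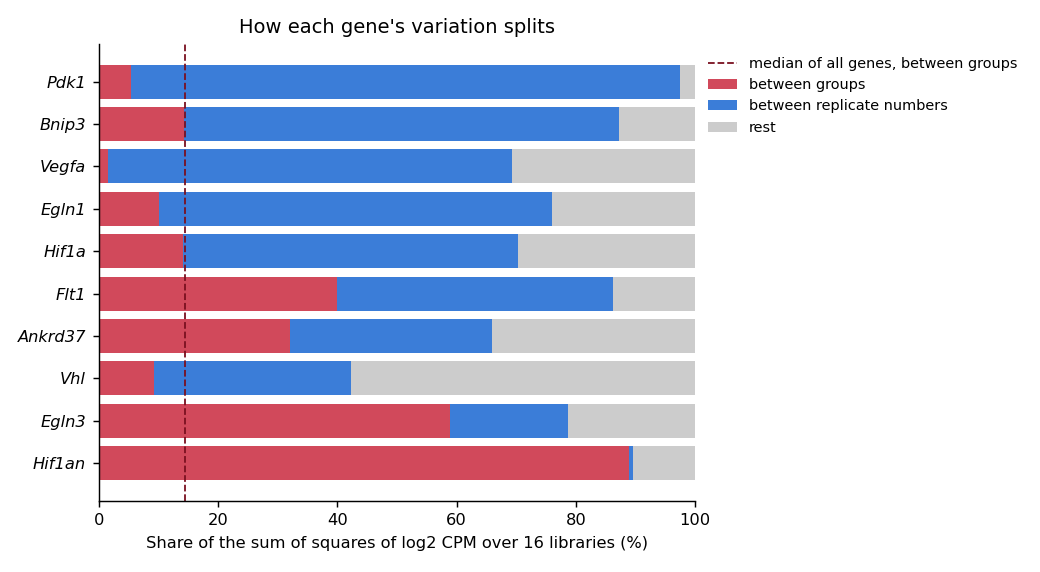
Share of each gene's sum of squares of log2 CPM over 16 libraries that lies between the 4 groups (red), between the 4 replicate numbers (blue) and in the rest (grey). The dashed line is the median share between groups over all tested genes (14.4%). Hif1an is mostly red at 89.0% and Pdk1 mostly blue at 92.0%.

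Sequence windows around the start sites, from RefSeq (GRCm38.p6, 250 bases before to 50 after the start), were used for 8 of the 10 members, in 10 windows. Member windows on chromosome 8 were left out, so Egln1 and Ankrd37, which both lie there, were not searched. The shares over all windows were counted without this exclusion. The windows were searched on both strands for the core of the HIF binding motif, ACGTG or GCGTG, counting the palindrome CACGTG once per strand. The core occurred in 6 of the 10 windows, in 43.8% of all 32851 windows and in 59.6% of the windows of tested genes. Bnip3 held 5 matches, Hif1a 3, Pdk1 and Vegfa 2 each, and Egln3 and Flt1 1 each, while the Hif1an and Vhl windows held none. Pdk1 and Vegfa have 2 windows each, and all their matches lie in 1 of them. For Vegfa that window, chr17:46025114-46025413, is inside the gene, and the one at the annotated gene start, chr17:46032328-46032627, held none. Windows of the HIF target lists contained it in 57 of 73 cases (78.1%). The stretches below belong to Bnip3 and Pdk1, the members with the largest share of variation between replicate numbers, to Egln3 and to Hif1a. They run 5′ to 3′ on the gene's strand, upstream of the RefSeq start of their window, with the core matches in capitals. For Hif1a that start lies inside the annotated gene, which begins at 73901375 on chromosome 12, and the Vegfa stretch inside its gene is not shown.
Bnip3, chr7:138909581-138909643, minus strand: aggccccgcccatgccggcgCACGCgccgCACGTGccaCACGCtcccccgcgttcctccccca
Pdk1, chr2:71873126-71873170, plus strand: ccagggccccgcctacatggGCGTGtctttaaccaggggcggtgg
Egln3, chr12:54204079-54204123, minus strand: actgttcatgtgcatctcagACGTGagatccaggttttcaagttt
Hif1a, chr12:73907712-73907821, plus strand: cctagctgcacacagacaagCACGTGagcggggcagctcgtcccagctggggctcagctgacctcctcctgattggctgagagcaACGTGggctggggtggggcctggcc
The printed stretches hold 4 of the 5 matches of Bnip3 and 1 of the 2 of Pdk1. A match is a description of the letters and no evidence of binding in these neurons.

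The rise in the libraries numbered 2 extended beyond Bnip3, Pdk1 and Vegfa. Of 53 further HIF target genes tested, 33 had their highest mean in the libraries numbered 2, as did 29.4% of all tested genes, and 22 were highest there in each of the 4 groups, where 8.90% of all tested genes were. Their median deviation in number 2 was 0.27 on the log2 scale, beside 0.02 for all genes. Among those chosen for mention after their values were seen, the glycolytic genes Pfkl (0.89) and Ldha (0.55) and the mitochondrial Higd1a (0.62) were raised there by these log2 amounts over their own means. Others of the list went the opposite way, among them Aldoc (-1.18), Plod1 (-0.98) and Slc2a1 (-0.27). The libraries numbered 2 also had the lowest summed astrocyte markers, 1183 to 1567 CPM against 1853 to 5667 elsewhere, and the lowest oligodendrocyte lineage markers, 108 to 141 CPM against 185 to 858 elsewhere. Summed pericyte and fibroblast markers were 28.5 to 31.3 CPM in number 2, 30.7 to 59.0 in number 3 and 111 to 483 in numbers 1 and 4, and neuron markers were 8009 to 8645, 8348 to 9546 and 3561 to 6623 CPM. The part of these marker differences in the values above was not tested. This comparison was added after the values were seen.

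**Figure D4:**
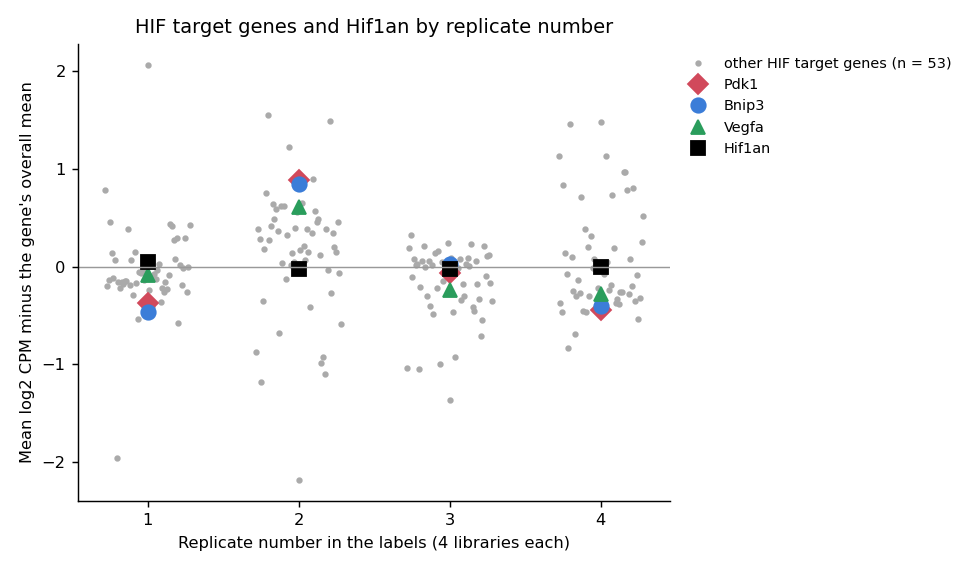
Mean log2 CPM of the 4 libraries of each replicate number minus the gene's mean over all 16, for Pdk1, Bnip3, Vegfa and Hif1an (coloured) and 53 other HIF target genes (grey). The numbers have no order. Pdk1 and Bnip3 stand at 0.88 and 0.84 in number 2, whereas Hif1an stays between -0.02 and 0.05.

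Beyond the members, 83 genes of 4 pathway lists were in the count tables and 80 were tested. Without the block edgeR called none of the 80 in any of the 6 comparisons, DESeq2 called none either, and 0 to 5 of them per comparison had an unadjusted p under 0.05 in edgeR, beside 2.28% to 6.43% of all genes. With the block 13 were called for apoE3 against control, 7 higher and 6 lower (13 of 80 beside 11.7% of all genes), 1 for apoE2 against control, 1 for apoE4 against control, 5 for apoE4 against apoE2, and none for apoE4 against apoE3 or apoE3 against apoE2. The median log2 fold change of the 80 was 0.03 for apoE3 and -0.06 for apoE4 against control in that fit, beside 0.02 and -0.00170 for all genes. Without the 4 libraries numbered 2 the blocked fit called 1 pathway gene for apoE2, 15 for apoE3 and 2 for apoE4 against control, where it called 0.531%, 11.3% and 2.4% of all genes, and 1 for apoE4 against apoE3 and 4 for apoE4 against apoE2, beside 1.71% and 3.37%. It no longer called Plod1 for apoE2, Hk1 for apoE3, Epas1 for apoE4, or P4ha2 and Narf for apoE4 against apoE2, all described next.

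In the sensing machinery, Epas1, the second HIF alpha subunit, was higher with the block after apoE3 (6.21 ± 4.62 CPM against 3.21 ± 2.16 in control, log2 fold change 0.87, SE 0.25, adjusted p = 0.0335 in edgeR) and after apoE4 (6.36 ± 4.32 CPM, 0.96, SE 0.24, adjusted p = 0.0417). The blocked edgeR fit also called Cited2, a HIF-induced competitor for the coactivators, higher for apoE4 than for apoE2 (19.0 ± 5.76 against 13.6 ± 3.27 CPM, log2 fold change 0.47, adjusted p = 0.0216). The prolyl hydroxylase Egln2 (54.5 to 66.1 CPM), the partner subunits Arnt (12.7 to 18.5 CPM) and Arnt2 (101 to 167 CPM), and the ligase parts Cul2 and Rbx1 were called in no comparison. Epas1 is also an astrocyte and vascular gene, and its libraries ran from 1.13 to 11.5 CPM.

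The neuropilins, coreceptors for VEGF and semaphorins, were the abundant members of the vascular list and were lower after apoE3 in the blocked fit. Nrp1 was at 356 ± 116 CPM against 498 ± 56.5 CPM in control neurons (log2 fold change -0.52, SE 0.12, adjusted p = 0.0101 in edgeR with the block), lower in 4 of 4 libraries of the same number. Nrp2 was at 160 ± 23.4 against 208 ± 43.0 CPM (-0.37, SE 0.09, adjusted p = 0.0191). The ligands Vegfb (14.1 to 19.9 CPM), Vegfc (0.314 to 1.63 CPM) and Pgf (1.78 to 4.86 CPM) and the receptor Kdr (0.419 to 5.14 CPM) were called in no comparison, and Flt4 was too low to test.

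Of the glucose metabolism targets, 7 of 25 were called for apoE3 against control in the blocked edgeR fit, 3 higher and 4 lower. That fit called 11.7% of all genes for this comparison, 1354 higher and 636 lower. Aldoc, the aldolase typical of astrocytes, was higher (562 against 298 CPM, log2 fold change 0.77, SE 0.16), as were the glycogen targeting subunit Ppp1r3c (0.84, SE 0.18) and Pfkfb3 (0.61, SE 0.19), which makes an activator of glycolysis. The neuronal enolase Eno2 (476 against 587 CPM, -0.37, SE 0.09), the neuronal glucose transporter Slc2a3 (-0.41, SE 0.11), Pfkp (-0.30, SE 0.06) and Hk1 (-0.24, SE 0.07) were lower. In the same fit 8 of 10 astrocyte markers were higher, and of 12 neuron markers 1 was higher and 2 were lower; the part of these marker differences in the values was not tested. Of the other targets Ndrg1 (1.09, SE 0.23), Plod1 (0.85, SE 0.15) and Bhlhe40 (0.64, SE 0.13) were higher after apoE3, and Plod1 also after apoE2 (0.91, SE 0.15). For apoE4 against apoE2, Rcor2 (-0.78, SE 0.16), P4ha2 (-0.47, SE 0.11), Pgam1 (-0.42, SE 0.10) and Narf (-0.30, SE 0.06) were lower in the blocked fit.

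Single libraries decided many of these calls. Counting the members, 27 calls were made with the block and described here, of which 10 were kept in all 16 blocked edgeR fits that each left out 1 library, a check added after the values were seen, and in none of the 27 did the log2 fold change move by over 1.5 times. For apoE3 against control, Aldoc, Bhlhe40, Ndrg1, Nrp1, Pfkp and Plod1 were kept throughout. Without control replicate 1 the calls of Eno2, Epas1, Hk1, Nrp2, Pfkfb3, Ppp1r3c and Slc2a3 were lost (adjusted p up to 0.196 in edgeR), all but Ppp1r3c also without control replicate 4 or apoE3 replicate 4. Epas1, Hk1, Pfkfb3 and Slc2a3 were lost without control replicate 3, Eno2 and these 4 without apoE3 replicate 1, and Hk1, Nrp2 and Pfkfb3 without apoE3 replicate 3. Hk1 was also lost without control replicate 2, and Hk1, Pfkfb3 or both without apoE2 replicate 2 or 3 or any 1 apoE4 library. For apoE4 against control, Epas1 was kept in 6 of the 16 fits, being lost without control replicate 1, 3 or 4, apoE2 replicate 2, apoE3 replicate 1 or 3, or any 1 apoE4 library. Plod1 for apoE2 was lost without control replicate 1 (adjusted p = 0.0518 in edgeR). For apoE4 against apoE2, leaving out apoE4 replicate 3 ended the calls of Cited2, Narf, P4ha2, Pgam1 and Rcor2, and leaving out apoE4 replicate 4 those of all but Rcor2. Narf, P4ha2 and Pgam1 were lost without apoE2 replicate 2, Cited2 and P4ha2 without apoE2 replicate 3, these and Pgam1 without apoE2 replicate 4, and Pgam1 without apoE2 replicate 1 or apoE4 replicate 1.

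Without the block, where none of the pathway genes was called, many of them moved more with single libraries. Leaving out apoE3 replicate 4 took the log2 fold change for apoE3 of Aldoc from 0.91 to 0.42, of Ndrg1 from 1.16 to 0.46, of Plod1 from 0.90 to 0.44, of Pfkfb3 from 0.76 to 0.25 and of Ppp1r3c from 0.92 to 0.56. It took Epas1 from 0.95 to 0.58, Eno2 from -0.30 to -0.08, Slc2a3 from -0.38 to -0.21, Pfkp from -0.30 to -0.19 and Hk1 from -0.23 to -0.11. Eno2, Pfkp and Hk1 moved to -0.09, -0.07 and -0.13 without control replicate 2 and to -0.59, -0.54 and -0.36 without apoE3 replicate 2, Eno2 to -0.46 without control replicate 4, and Pfkp to -0.19 and Epas1 to 0.62 without apoE3 replicate 1. For apoE4, Epas1 moved from 0.98 to 0.53 without apoE4 replicate 1, and for apoE2, Plod1 from 0.80 to 1.25 without control replicate 4. For apoE4 against apoE2, Cited2 moved from 0.48 to 0.25 without apoE4 replicate 3. P4ha2 moved from -0.47 to -0.24 and Pgam1 from -0.40 to -0.16 without apoE2 replicate 2, and Pgam1 to -0.64 without apoE4 replicate 2 and -0.24 without apoE4 replicate 4. Narf, at -0.30 without the block, reached -0.60 without apoE4 replicate 2 and -0.15 without apoE4 replicate 3, and turned sign, to 0.00927, without apoE2 replicate 2.

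**Figure D5:**
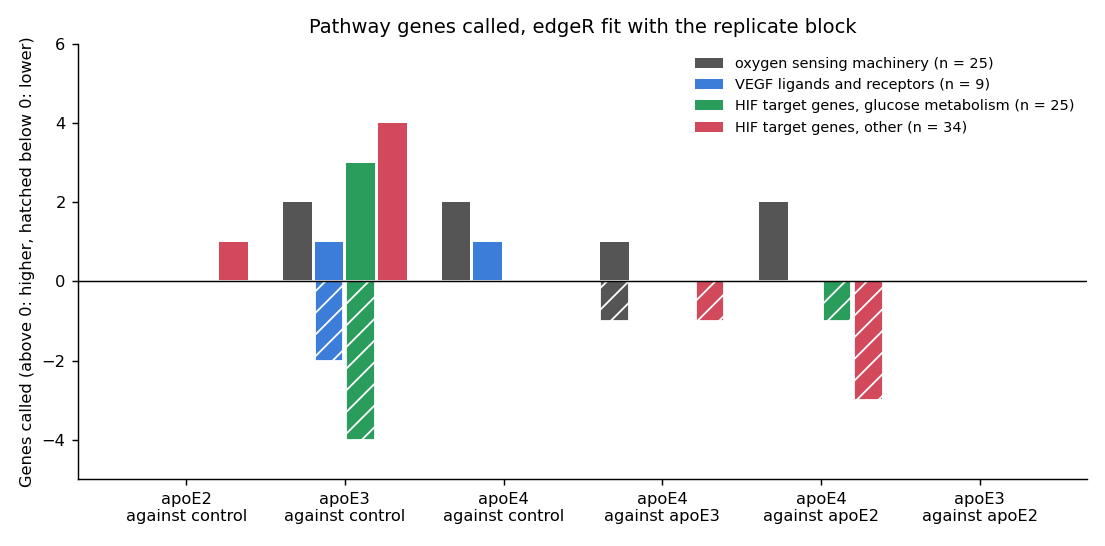
Number of genes called at an adjusted p under 0.05 in the edgeR fit with the replicate block, for each of 4 pathway lists (members included, and lists share some genes) and 6 comparisons. Bars above 0 count genes higher in the group named first and hatched bars below 0 count lower ones. The apoE3 against control comparison holds the most calls, with 3 higher and 4 lower among the glucose metabolism targets.

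The genes whose pattern was most like that of Hif1an were Gm340, Tmem248, Cmtm4, Rad54l2 and Ino80d, with Pearson r from 0.971 to 0.979 over the 16 libraries of log2 CPM freed of the replicate number's mean. In total 75 genes had an r over 0.9. These points share libraries and groups, so the values are descriptive. Cmtm4 was at 361 ± 87.9 CPM after apoE4 against 143 ± 15.4 CPM in control neurons, and Tmem248 at 96.6 ± 15.2 against 52.9 ± 2.49 CPM. No other member came near: r with Hif1an was 0.56 for Flt1, 0.54 for Egln1 and -0.49 for Pdk1. For Flt1 the likest genes were Arhgap11a, Kctd10, Cenpe, Arhgef5 and Il1r1, with r from 0.910 to 0.931. Of these, only Arhgap11a and Cenpe are genes of cell division. The summed proliferating cell markers averaged 17.9 ± 6.50 CPM in control, 30.4 ± 3.50 in apoE2, 44.3 ± 6.45 in apoE3 and 34.8 ± 14.8 in apoE4 libraries (SD, n = 4). Flt1 averaged 0.648 ± 0.291, 1.12 ± 0.358, 1.52 ± 0.790 and 1.71 ± 0.681 CPM in the same order, so its highest mean was after apoE4 and that of the markers after apoE3. A link of Flt1 to dividing cells was not tested.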

How the data were processed

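Poly-A independent (rRNA-depleted) libraries of 16 cultures were sequenced by the authors, aligned with STAR to mm10 and counted per gene with HTSeq, and the deposited files hold raw counts per gene symbol for 1 library each. The annotation and the strand setting are not given in the sources used here. Reads assigned to no gene, 38.4% to 73.7% per library, were left out of library sizes.

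Genes were kept by filterByExpr (minimum count 10, total 15, proportion 0.7), scaled by TMM and tested with edgeR 4.0.16 (quasi-likelihood, 1 coefficient per group, 16 libraries, R 4.3.3) with Benjamini-Hochberg adjustment over 17038 genes. DESeq2 1.42.0, another scaling, no filter, only the groups compared, a replicate block and leaving out each library, with and without the block, were alternatives. The code was tested on simulated data. Log2 CPM used a prior count of 2.

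Deviations from group means correlated at 0.362 to 0.831 between same-numbered libraries of different groups and at -0.736 to 0.569 between differently numbered ones. The ranges overlap, with the pairs of number 1 at 0.362 to 0.552, so these values do not settle the pairing by number. The paper states that the sequenced cultures of each isoform were independent, so the spread within an isoform group is between cultures. It also sequenced control cultures. The labels do not say whether a number marks material shared across groups, so the pairing used by the block remains an assumption. No 2 libraries of a group agreed within sampling noise.

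The members and lists were chosen with earlier results of these data known. All 10 members are named, as are list genes called in any comparison with or without the block, some further genes of the sensing and VEGF lists, and the 5 genes most like Hif1an and Flt1. Gene positions come from GENCODE M21 on mm10, with 96.0% of symbols matched. Antisense overlaps and counting error limit low genes.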

Additional observations from a re-analysis of the deposited data

Results flagged for a closer look

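Hif1an differed between isoforms. The effect of apoE4 against the control exceeded that of apoE3 by 0.71 and that of apoE2 by 0.82 on the log2 scale, and edgeR's direct tests passed for both.

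Of 40 sets of 4 libraries (10 genes in 4 groups), 4 held a library whose distance to the nearest of the others, relative to the whole range, was above Dixon's critical value. Chance marks about 1 in 20 such sets. Hif1an was at 35.0 CPM in control replicate 1 against 31.0 to 31.1 in the other control libraries. Vegfa was at 57.5 CPM in apoE4 replicate 2 against 32.9 to 35.8. Pdk1 was at 140 CPM in apoE2 replicate 2 against 51.4 to 59.7. Ankrd37 was at 3.22 CPM in apoE4 replicate 2 against 1.42 to 1.53. The last 3 are libraries numbered 2. Their cause was not tested.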

How the results depend on the processing

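With the replicate block, members called rose to 2 for apoE3 against control, apoE4 against control and apoE4 against apoE3, and pathway genes called rose from 0 to 1, 13, 1 and 5 for apoE2, apoE3 and apoE4 against control and apoE4 against apoE2; the block changed no other count. The blocked fit without the 4 libraries numbered 2, added after seeing the data, called 2 members for apoE3 against control, and 1, 15, 2, 1 and 4 pathway genes for apoE2, apoE3 and apoE4 against control, apoE4 against apoE3 and apoE4 against apoE2. With only the 2 groups compared, members called fell to 0 in the 3 apoE4 comparisons, and members at the study criterion for apoE3 to 1. Without the libraries numbered 2 and without the block, members called fell to 0 for apoE4 against control and against apoE3. Leaving out 1 library at a time gave 0 to 1 members called for apoE4 against apoE3 and 0 to 2 at the study criterion for apoE3. In the blocked fit, leaving out 1 library at a time, a check added after seeing the data, gave 1 to 2 members called for apoE3 and for apoE4 against control, 1 to 3 for apoE4 against apoE3 and against apoE2, and 0 to 1 and 1 to 3 at the study criterion for apoE2 and apoE3. Pathway genes called were then 0 to 5, 6 to 16 and 0 to 5 for apoE2, apoE3 and apoE4 against control, 0 to 1 for apoE4 against apoE3 and 0 to 7 for apoE4 against apoE2. Ankrd37 for apoE4 against control moved to -1.004 and, with the block, -0.95 without the libraries numbered 2, and Narf for apoE4 against apoE2, leaving out 1 library at a time, ran from -0.596 (without apoE4 replicate 2) to 0.00927 (without apoE2 replicate 2). DESeq2, its size factors and no low-count filter kept every count. The cause of these changes was not tested. Depth limits Flt1 and Ankrd37.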
